A study of Mus musculus with 2 samples.

Results

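The Hox genes are the homeobox genes of 4 clusters, HoxA to HoxD, and 39 of the 21829 protein-coding mouse genes examined belong to them. They were taken by symbol, Hoxa to Hoxd followed by the number of the paralog group (1 to 13), with no measured value used. Each cluster was read from the start of its first to the end of its last Hox gene, together with a flank of 500 kb on each side. On mm10, HoxA lies on chromosome 6 (52155590 to 52260880), HoxB on chromosome 11 (96194316 to 96368256), HoxC on chromosome 15 (102921103 to 103036852) and HoxD on chromosome 2 (74668310 to 74765142). The clusters cover 492 kb in all and the flanks 4000 kb. DNase-seq finds accessible chromatin as the places that DNase I can cut, and a footprint is a short stretch inside such a site that is cut less, as under a bound protein. The tissue was the gastrocnemius, the large muscle of the calf, from adult B6CASTF1/J males, an F1 hybrid strain, at an age of 18 to 20 months. There were 2 samples in 1 group, named biological replicates 1 and 2. They share a donor label and differ in biosample label, which does not tell 1 animal from 2, so each SD (n = 2) measures only how these samples differ. With no second group, no test was made and no p-value is given.

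Hox proteins are transcription factors with a homeodomain that give cells a position along the body axis and, in the limb, from shoulder or hip to toe. Within a cluster the genes stand in the order of the body regions they pattern: low paralog groups act toward the head, and high groups act toward the tail and in the outer limb. CTCF, a zinc finger protein that binds a directional sequence and anchors chromatin loops, is known to mark borders inside these clusters. Here the end of a cluster with the lowest group is called anterior and the end with the highest group posterior.

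Replicate 1 had 110 peaks in the clusters and 342 in the flanks, of 131398 on all chromosomes, and replicate 2 had 101 and 243 of 91567. A distal peak is one that does not overlap 1000 bp on either side of any protein-coding start site. There were 58 distal peaks in the clusters in replicate 1 and 53 in replicate 2. The signal of a peak is in the authors' unit and was scaled per list, so that its rank among all peaks of its own list, as a percentile from 0 to 100, is used beside it.

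The sequence under the strongest distal peak of each cluster is given first, because each had the highest mean signal percentile of its cluster among peaks that were called in both replicates and lay outside the promoter windows of protein-coding genes. They were read from the RefSeq copy of GRCm38 (strain C57BL/6J), plus strand, 5′ to 3′; the second allele of the hybrid comes from a CAST strain and may differ. Capitals mark the bases that lay in a footprint of both replicates.
HoxA, chr6:52257041-52257240, between Hoxa11 and Hoxa13: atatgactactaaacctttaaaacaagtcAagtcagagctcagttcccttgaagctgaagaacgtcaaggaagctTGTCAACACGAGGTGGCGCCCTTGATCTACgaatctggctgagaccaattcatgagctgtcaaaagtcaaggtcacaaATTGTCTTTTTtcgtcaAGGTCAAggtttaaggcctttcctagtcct
HoxB, chr11:96278861-96279060, between Hoxb9 and Hoxb8: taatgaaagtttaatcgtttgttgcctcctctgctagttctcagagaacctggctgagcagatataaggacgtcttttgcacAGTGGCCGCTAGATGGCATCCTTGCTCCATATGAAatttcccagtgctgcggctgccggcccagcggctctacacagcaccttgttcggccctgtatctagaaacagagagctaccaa
HoxC, chr15:102987501-102987700, between Hoxc9 and Hoxc8: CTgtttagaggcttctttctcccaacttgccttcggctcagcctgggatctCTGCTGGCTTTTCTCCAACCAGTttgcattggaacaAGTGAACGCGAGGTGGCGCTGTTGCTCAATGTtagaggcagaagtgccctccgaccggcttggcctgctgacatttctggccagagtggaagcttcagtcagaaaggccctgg
HoxD, chr2:74715841-74716040, between Hoxd8 and Hoxd4: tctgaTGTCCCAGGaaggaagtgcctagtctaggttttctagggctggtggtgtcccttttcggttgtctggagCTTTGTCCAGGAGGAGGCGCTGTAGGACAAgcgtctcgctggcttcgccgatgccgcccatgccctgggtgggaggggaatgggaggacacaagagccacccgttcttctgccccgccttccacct

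In HoxA, HoxC and HoxD the footprinted bases hold the letters AGGNGGCGC. Where N is G or T, this string overlaps the end of the 12-letter CTCF core searched further below. N is T in the HoxA and HoxC peaks and A in the HoxD peak. The core printed below near Gpr84, with the bases beside it, holds the whole string. Whether CTCF binds these 3 peaks was not tested. The string was chosen after these sequences had been read, so its presence in them is a description. Searched on both strands in the 200 bp about the middle of each distal peak, it was in 6 of 58 cluster peaks of replicate 1 and 5 of 53 of replicate 2, counts that include the 3 peaks it was read from. Without these 3 it was in 3 of 55 and 2 of 50. In the flanks it was in 13 of 264 and 12 of 175 distal peaks (4.92% and 6.86%), and over all distal peaks in 2.52% and 3.41%. The clusters hold it at 26 places, and 8 of these, again with those 3 among them, lay in a peak and a footprint in both replicates, against 13 of 46 places in the flanks.

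The HoxC peak had signals of 6.49 and 6.01 in replicates 1 and 2 (percentiles 98.1 and 96.3), and lay 3006 bp from the start of Hoxc8. The HoxD peak had 4.41 and 3.85 (95.7 and 92.1) and lay in an exon of the antisense gene Hoxd3os1 and an intron of the Hoxd3 and Hoxd4 records. These 2 peaks stood higher in their lists than the HoxA peak, with signals of 2.64 and 2.98 (90.8 and 89.1), 3661 bp from Hoxa13. The HoxB peak, 2944 bp from Hoxb8, had 2.29 and 2.44 (88.8 and 86.0). Each of the 4 held at least 2 footprints in both replicates.

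The next peak in each cluster by mean percentile was weaker. In HoxA it lay in a Hoxa3 exon (52172621 to 52172840), with signals of 2.39 and 2.20. In HoxB it lay in an intron of Hoxb6 and Hoxb5os (96294601 to 96294820), with 1.46 and 1.83. In HoxC it lay in an intron of the Hoxc5 and Hoxc6 records (102999201 to 102999520), with 3.07 and 3.29 and 8 and 7 footprints. In HoxD it lay between Hoxd9 and Hoxd8 (74702301 to 74702500), with 1.84 and 2.01.

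Peaks were denser in the clusters than in the flanks or on the chromosomes as a whole, in both replicates. Per 100 kb there were 22.4 and 20.5 peaks in the clusters (mean 21.5 ± 1.29, SD, n = 2). The flanks had 8.55 and 6.08 (7.31 ± 1.75), and all chromosomes 4.96 and 3.46 (4.21 ± 1.06). Away from promoter windows the order was the same, with 14.99 and 13.7 distal peaks per 100 kb in the clusters, 6.87 and 4.56 in the flanks and 3.98 and 2.57 on all chromosomes. Footprints numbered 55.7 and 48.0 per 100 kb in the clusters, 23.8 and 17.2 in the flanks and 12.8 and 8.84 on all chromosomes. In the deposited lists of fewer peaks, the clusters had 12.8 and 13 peaks per 100 kb, against 3.28 and 2.19 on all chromosomes. Repeats took up 18.2% of the bases of the clusters, 28.0% of the flanks and 36.4% of all chromosomes; GC content was 49.3% in the clusters and 43.7% in the flanks. Their part in the densities was not tested.

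**Figure D1:**
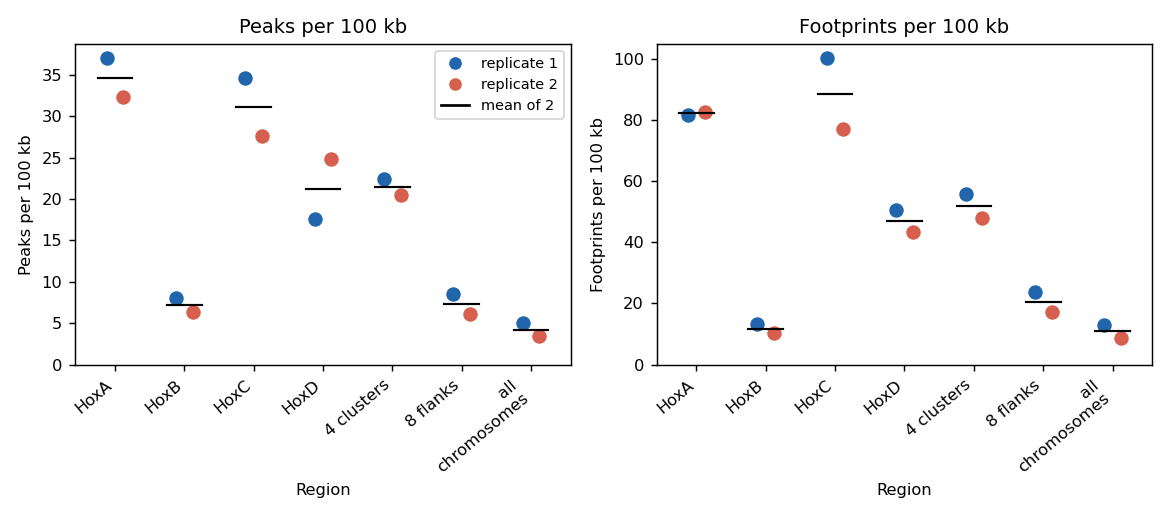
Peaks (left) and footprints (right) per 100 kb in each Hox cluster, the 4 clusters together, the 8 flanks and all chromosomes; points are the 2 replicates and bars their mean. HoxA and HoxC lie above 27 peaks per 100 kb in both replicates, and HoxB lies near the flanks.

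The replicate ranges of the clusters did not overlap, with the exception of HoxA and HoxC. HoxA had 39 and 34 peaks (37.0 and 32.3 per 100 kb) and HoxC 40 and 32 (34.6 and 27.6), so that their ranges overlap. HoxD had 17 peaks in replicate 1 and 24 in replicate 2 (17.6 and 24.8 per 100 kb), although the list of replicate 2 is the shorter one. HoxB, the longest cluster, had 14 and 11 peaks (8.05 and 6.32 per 100 kb), a density within the range of the 8 single flanks. Footprints numbered 81.7 and 82.6 per 100 kb in HoxA, 100.2 and 76.9 in HoxC, 50.6 and 43.4 in HoxD and 13.2 and 10.3 in HoxB, so that HoxA and HoxC again overlapped and HoxB was lowest of the 4.

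**Figure D2:**
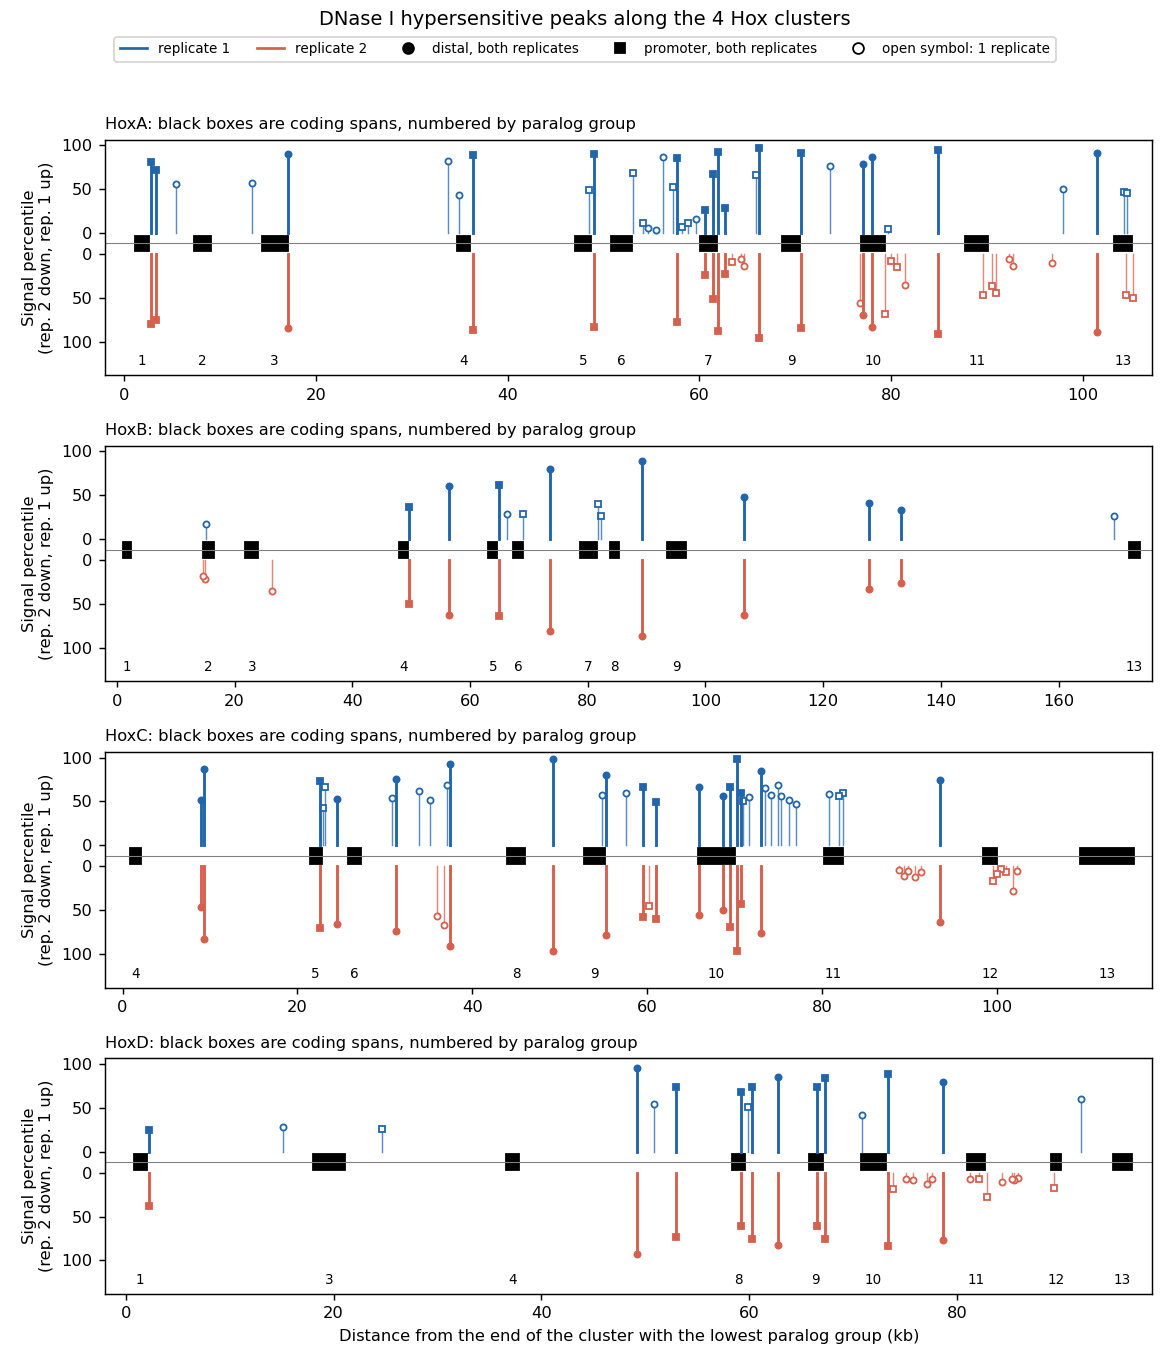
Peaks along the 4 clusters, with distance in kb from the anterior end on the horizontal axis and the signal percentile on the vertical axis (replicate 1 up, replicate 2 down; filled symbols are peaks called in both replicates, squares lie in promoter windows). Peaks called in both replicates are spread along HoxA and HoxC, the anterior end of HoxB has few, and runs of open symbols of 1 replicate stand near Hoxa6, Hoxa10, Hoxa11, Hoxc10 to Hoxc12 and Hoxd10 to Hoxd12.

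The promoters are the base against which the spaces were read, and the share of them with a peak was not above that of other genes. In each replicate 23 of 39 Hox genes had a peak within 1000 bp of a start site (59.0%, exact 95% interval 42.1 to 74.4), against 65.7% and 63.6% of all protein-coding genes in replicates 1 and 2. Intervals cover counting error only, and peaks that lie side by side are not independent. The 2 replicates shared 19 of these genes, and 12 Hox genes had none in either. HoxA had 9 and 9 of 11 genes marked, HoxC 5 and 5 of 9, HoxD 5 and 7 of 9, and HoxB 4 and 2 of 10. By paralog group, 6 and 6 of 12 genes of groups 1 to 4 were marked, 8 and 5 of 11 of groups 5 to 8, and 9 and 12 of 16 of groups 9 to 13. All 3 genes of group 10, which pattern the hindlimb and lower trunk, and all 3 of group 5 were marked in both replicates, and neither gene of group 2 was.

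Hoxc10 had the strongest promoter peak of the 39 genes, with signals of 6.67 and 6.37, followed by Hoxa7 with 4.77 and 5.75. Hoxc13 had 2.03 and 2.70, whereas Hoxd13 and Hoxb13 had none, and Hoxa13, which patterns the outermost limb, had 0.563 and 0.755. The genes marked in replicate 1 alone were Hoxa6, Hoxb6, Hoxb7 and Hoxc11. Those marked in replicate 2 alone were Hoxa11, Hoxc12, Hoxd11 and Hoxd12, all of groups 11 and 12, with percentiles of 16.7 to 47.0. Fewer cells with an accessible site and less access per cell cannot be told apart in whole muscle.

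**Figure D3:**
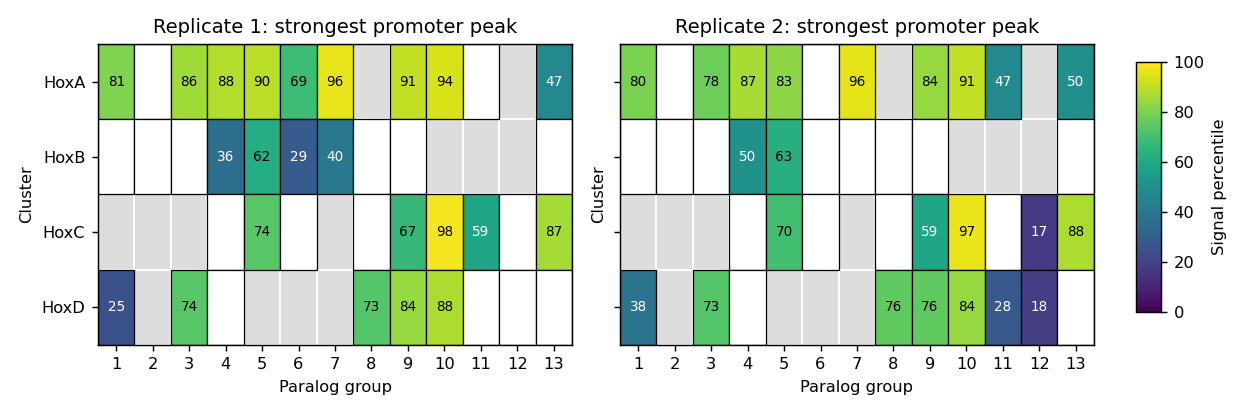
Signal percentile of the strongest promoter peak of each Hox gene in replicate 1 (left) and replicate 2 (right), with the clusters as rows and the paralog groups as columns; white boxes are genes with no peak and grey boxes are genes that do not exist. The 2 replicates differ at 8 genes, and HoxB has colour in groups 4 to 7 only.

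The 35 spaces between consecutive coding spans were described next. They were 2.02 to 75.3 kb long with a median of 8.43 kb. At least 1 region was called in both replicates in 26 of them, and a distal one in 16. A pair of spaces, both at the anterior end of HoxB, had no peak in either replicate: Hoxb3 to Hoxb2 (5.41 kb) and Hoxb2 to Hoxb1 (12.2 kb). The neighbouring space from Hoxb4 to Hoxb3 (23.9 kb) had 0 peaks in replicate 1 and 1 in replicate 2.

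The spaces with the most regions called in both replicates were Hoxa7 to Hoxa9 in HoxA (3 regions, from 5 and 7 peaks) and Hoxb13 to Hoxb9 in HoxB (3 regions, from 4 and 3 peaks). In HoxC they were Hoxc11 to Hoxc10 and Hoxc10 to Hoxc9, with 3 regions each. In HoxD the spaces Hoxd11 to Hoxd10, Hoxd9 to Hoxd8 and Hoxd8 to Hoxd4 had 2 each. The space from Hoxb13 to Hoxb9 is the longest, 75.3 kb, and it holds the longest stretch of a cluster with no peak in either replicate, 36.1 kb. Its 3 shared regions were weak, with a highest signal of 0.569 and 0.995. HoxC was the cluster whose spaces most often held a shared distal region, in 7 of 8, against 2 of 10 in HoxA, 4 of 9 in HoxB and 3 of 8 in HoxD. With promoter regions counted too, a shared region lay in 9 of 10 spaces in HoxA, 5 of 9 in HoxB, 7 of 8 in HoxC and 5 of 8 in HoxD. The spaces of HoxA were shorter than those of HoxC (median 6.97 and 10.4 kb), which leaves less room outside promoter windows.

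**Figure D4:**
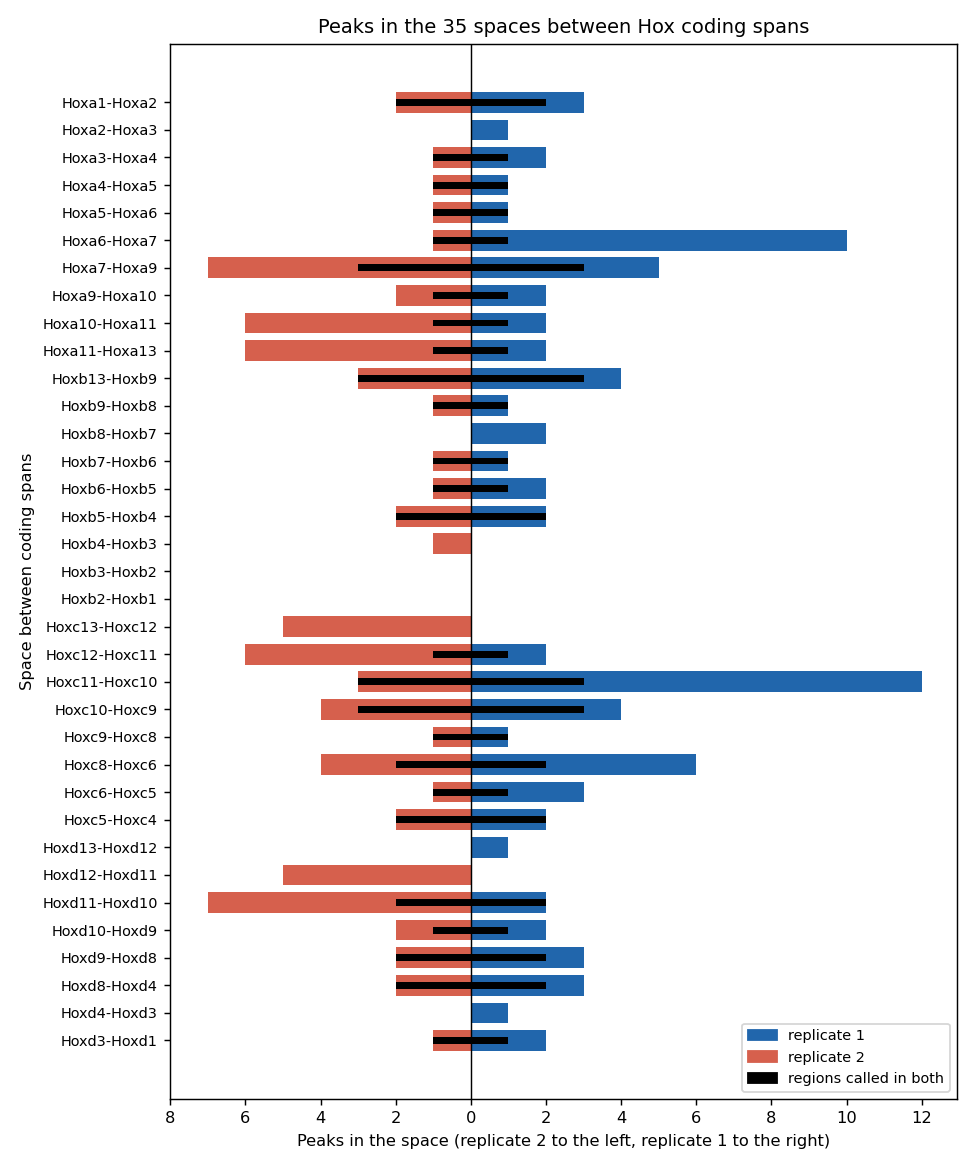
Peaks in each of the 35 spaces between Hox coding spans, replicate 2 to the left and replicate 1 to the right, with regions called in both replicates as black bars. Replicate 1 has 10 and 12 peaks in the spaces Hoxa6 to Hoxa7 and Hoxc11 to Hoxc10, and replicate 2 has 7 in each of Hoxa7 to Hoxa9 and Hoxd11 to Hoxd10, its highest numbers.

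Distal peaks of the clusters were found in both replicates less often than distal peaks of the flanks. Of 58 cluster peaks of replicate 1, 25 overlapped a peak of replicate 2 (43.1%, exact 95% interval 30.2 to 56.8), and of 53 of replicate 2, 24 overlapped one of replicate 1 (45.3%, 31.6 to 59.6). In the flanks the shares were 61.4% (55.2 to 67.3) and 93.1% (88.3 to 96.4), and over all distal peaks 52.8% and 81.7%. In replicate 2 the cluster interval lay below both other shares. In replicate 1 it reached past the share over all chromosomes. With the stronger 50% of each list alone, the cluster shares were 46.7% and 83.3%, against 59.5% and 96.7% over all distal peaks, so that the gap in replicate 2 was narrower among its stronger peaks.

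**Figure D5:**
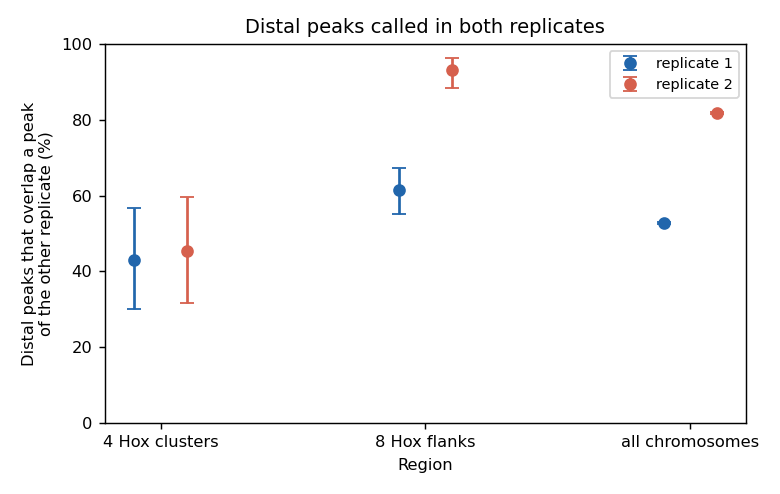
Share of distal peaks that overlap a peak of the other replicate, in percent, for the 4 Hox clusters, the 8 flanks and all chromosomes; bars are exact 95% intervals for counting error. Replicate 2 stands at 45.3% in the clusters, 93.1% in the flanks and 81.7% on all chromosomes.

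Merged over both replicates, the clusters held 83 distal regions: 24 called in both, 31 in replicate 1 alone and 28 in replicate 2 alone. In the posterior flanks 6 of 132 distal regions, and in the anterior flanks 6 of 142, were called in replicate 2 alone. Peaks not shared had a median percentile of 54.8 in the clusters in replicate 1, against 25.5 in the flanks and 24.8 over all chromosomes. In replicate 2 that median was 10.6 in the clusters, 16.7 in the flanks and 7.39 over all chromosomes. Of the 24 shared distal regions, 7 lay in an exon, 9 in an intron and 8 outside any gene record, and 23 had a footprint in both replicates. Footprints lay in 53 of 58 distal cluster peaks of replicate 1 (91.4%, 81.0 to 97.1) and 41 of 53 of replicate 2 (77.4%, 63.8 to 87.7), against 83.7% and 81.9% of all distal peaks.

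Some of the cluster peaks called in 1 replicate stood in runs, and others stood outside any run. A run was counted where 4 or more peaks of 1 list followed each other with gaps under 2 kb and none overlapped a peak of the other replicate, a definition made after the peaks had been seen. Replicate 2 had 6 runs in the clusters, which held 33 of its 101 cluster peaks (32.7%), against 5.02% of its peaks on all chromosomes. Replicate 1 had 3 runs with 17 of its 110 peaks (15.5%), against 1.28%. A run forms more readily where peaks are dense and seldom shared, so these shares are not compared like for like. The clusters had 22.4 and 20.5 peaks per 100 kb in replicates 1 and 2, against 4.96 and 3.46 on all chromosomes. The part of density in the runs was not tested. In the flanks replicate 1 had 1 run and replicate 2 had 0. The HoxB cluster had none.

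The 3 runs of replicate 1 lay from Hoxa6 into the space toward Hoxa7 (6 peaks over 4.33 kb), at Hoxc11 (5 peaks over 2.10 kb) and between Hoxc11 and Hoxc10 (6 peaks over 3.81 kb). They held 39 footprints in replicate 1 and 0 in replicate 2. The first of them lies within 1000 bp of the upstream start of Hoxa3 as well as that of Hoxa6. Its highest signal was 2.03, while the runs near Hoxc11 reached 0.746 and 0.985.

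The 6 runs of replicate 2 all lay at or beside genes of paralog groups 10 to 12, which are known for patterning the limb and the hind part of the trunk. They were at Hoxa10 (5 peaks), at Hoxa11 (5 peaks), at Hoxc12 (6 peaks), between Hoxc12 and Hoxc11 at the noncoding gene Hotair (5 peaks), at Hoxd11 (7 peaks) and just before Hoxd10 (5 peaks). They held 50 footprints in replicate 2 and 0 in replicate 1. Their peaks were weak, with median percentiles of 6.90 to 36.0 per run, against 31.5 to 56.6 in the runs of replicate 1. Of the 33 peaks, 21 were also in the shorter deposited list of replicate 2, and 8 of the 17 in that of replicate 1. The shorter lists hold 57869 peaks in replicate 2 and 86830 in replicate 1, against 91567 and 131398 in the longer ones. The count in replicate 2 was near what these sizes give, and that in replicate 1 was below it. The shorter list of the other replicate had 0 peaks in any of the 9 runs. The definition of a run largely sets this count, because that list lies almost wholly within the longer one. The definition also bears on the 0 footprints of the other replicate, as most cluster footprints lie within peaks (44.2 of 51.8 per 100 kb, mean of 2 replicates). The longer list of replicate 1 had 1 peak within the span of the Hoxa10 run, which overlapped none of its peaks.

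The CTCF core, a consensus of 12 letters searched by name on both strands, was in 0 of 58 and 0 of 53 distal cluster peaks (exact 95% upper limits 6.16% and 6.72%). It was in 20 of 264 (7.58%, 4.69 to 11.5) and 19 of 175 (10.9%, 6.66 to 16.4) distal peaks of the flanks, and in 5.44% and 6.63% of all distal peaks. The whole sequence of the clusters holds the core once, in the space from Hoxb13 to Hoxb9 (96265875 to 96265886), with no peak and no footprint. The flanks hold it 33 times, and 20 of these cores lay in a peak and a footprint in both replicates. Read along its own strand, the core ran in the direction from posterior to anterior at 8 of these places and from anterior to posterior at 12. The direction was read the same way in either flank, so it does not tell whether a core faced the cluster. Both in the HoxA flanks ran from posterior to anterior, and 4 of 5 in the HoxD flanks from anterior to posterior. Among all 33 cores, with or without a peak, 13 ran from posterior to anterior and 20 from anterior to posterior. All 6 cores of the HoxA flanks ran from posterior to anterior, and 5 of 7 in the HoxD flanks from anterior to posterior. The directions of the cores in peaks were thus near those of all cores in the flank sequence.

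The cores of the 4 flank peaks that held one and were among the 2 strongest of their flank are printed on their own strand, in capitals, with 9 bases on each side. All 4 lay in a footprint of both replicates.
HoxA flank, Skap2 exon, chr6:51858059-51858088, minus strand: cctaagtggCCAGCAGATGGCagcagcttg
HoxC flank, beyond Calcoco1, chr15:102742822-102742851, minus strand: atgaaatttCCACCAGGGGGCgatggaggc
HoxC flank, near Gpr84, chr15:103307321-103307350, minus strand: gcacaaagaCCACCAGGTGGCgctgtttcc
HoxD flank, beyond Mtx2, chr2:74964530-74964559, minus strand: aaggagcctCCAGCAGGGGGCacccttttg

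An absence of these exact letters draws nothing about CTCF itself, and the search was repeated with at most 1 letter different, a choice made after the first result was seen. Such a core was in 4 of 58 (6.90%, 1.91 to 16.7) and 2 of 53 (3.77%, 0.460 to 13) distal cluster peaks, in 23.9% and 25.7% of those of the flanks, and in 16.4% and 18.5% of all distal peaks. The clusters hold it at 34 places, of which 7 lay in a peak and a footprint in both replicates; 4 of the 7 stand in promoter windows, and 3 are distal. Of these 7, 6 pointed toward the anterior end and 1, between Hoxc12 and Hoxc11, toward the posterior end. The 34 places themselves ran in both directions in each cluster. In the flanks, 47 such places lay in a peak and a footprint in both replicates, 19 toward the anterior end and 28 toward the posterior end. Whether direction goes with a peak was not tested. The 7 cluster cores are printed in the same way, because each stands between the coding spans of neighbouring Hox genes.
Hoxa5 to Hoxa6, chr6:52204650-52204679, minus strand: gcccagtctCCAGCGGGTGGCgctcgagtc
Hoxa7 to Hoxa9, chr6:52221800-52221829, minus strand: aagaaaattCCAGGAGATGGCagtgtggct
Hoxa10 to Hoxa11, chr6:52240532-52240561, minus strand: tcgcagccgCCACGAGATGGCgcactcccg
Hoxb9 to Hoxb8, chr11:96278939-96278968, plus strand: gcacagtggCCGCTAGATGGCatccttgct
Hoxc12 to Hoxc11, chr15:102943449-102943478, minus strand: ccgctctggCCAGCAGGGGTCatcccgtcc
Hoxd9 to Hoxd8, chr2:74702386-74702415, plus strand: cgcatttggCCACTAGAGAGCgctgttgct
Hoxd8 to Hoxd4, chr2:74712142-74712171, plus strand: tctcacactCCAGCAGGGAGCcgaccgcct

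The peaks over these cores, which had to be called in both replicates, differed in strength. Their percentiles ran from 63.1 (Hoxc12 to Hoxc11, replicate 2) to 96.3 (Hoxa7 to Hoxa9, replicate 1). The core from Hoxa7 to Hoxa9 lay in a peak of 4.77 and 5.75, that from Hoxa10 to Hoxa11 in one of 3.60 and 3.35, and that from Hoxa5 to Hoxa6 in one of 2.46 and 2.09. The core from Hoxb9 to Hoxb8 is the one in the strongest distal HoxB peak. The cores in HoxD lay in peaks of 1.84 and 2.01 and of 1.14 and 1.39, and the one from Hoxc12 to Hoxc11 in a peak of 1.19 and 1.02.

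The E-box CAGCTG, a site that myogenic factors such as MyoD bind, was rarer in distal cluster peaks than elsewhere. It was in 3 of 58 (5.17%, 1.08 to 14.4) and 3 of 53 (5.66%, 1.18 to 15.7) of them, against 18.9% and 20.0% in the flanks and 21.4% and 22.2% over all distal peaks. Both cluster intervals lay below the share over all distal peaks. The posterior HOX core TTTATNG was in 8 of 58 and 2 of 53 cluster peaks (13.8% and 3.77%) and in 6.77% and 5.65% of all distal peaks, so that the replicates lay on either side. The PBX-HOX site TGATTNAT was in 0 of 58 and 0 of 53, against 2.41% and 2.04% of all distal peaks, which these numbers cannot tell apart. The median ratio of observed to chance CpG in distal cluster peaks was 0.557 and 0.520. It was 0.263 and 0.303 in those of the flanks and 0.222 and 0.238 over all distal peaks. The whole sequence of the clusters is itself richer in CpG than that of the flanks, with ratios of 0.401 and 0.225. How far the ratio of the peaks goes beyond that of their region was not tested.

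Among the noncoding genes of the clusters, Hoxd3os1 had a peak at its start in both replicates, at the strongest distal HoxD peak (4.41 and 3.85). Mir615 had peaks of 1.15 and 1.23 in both, which are also the strongest promoter peaks of Hoxc5. Mir196b had one of 1.28 in replicate 1, and Hotair and Hoxa11os had theirs in replicate 2 alone, with highest signals of 0.324 and 0.716. The one at Hoxa11os is also the strongest promoter peak of Hoxa11. Hottip, which stands beyond Hoxa13, had none, the nearest being 2554 and 1874 bp away. Mir10a and Mir10b, microRNAs that lie next to the group 4 genes, had their nearest peaks 1306 and 1298 bp and 10029 and 10029 bp away. Mir10b stands in a peak-free stretch of 24.4 kb (74716041 to 74740480), the longest in HoxD, which also holds both protein-coding start sites of Hoxd4 (74721978 and 74727074), although its record begins outside the stretch.

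The flanks also differed among themselves. The anterior flank of HoxC was the densest, with 82 and 65 peaks (16.4 and 13 per 100 kb). The anterior flank of HoxA had 21 and 13 peaks (4.20 and 2.60 per 100 kb), and the posterior flank of HoxD 22 and 12 (4.40 and 2.40). The posterior flank of HoxD lies within one of the regulatory domains known to drive limb expression of HoxD, and its strongest shared distal peak (74409961 to 74410160) had 2.25 and 1.11. The anterior flank, the other such domain, had a peak of 2.90 and 2.82 (74964441 to 74964640). The longest stretch with no peak in any flank was 110 kb (102785681 to 102895835), in the posterior flank of HoxC.

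The strongest distal flank peak was 12215 bp from Copz2 in the anterior flank of HoxB (96861981 to 96862200), with signals of 6.37 and 6.59. In other flanks the strongest were a peak in an exon of the noncoding gene 4833417C18Rik in the posterior flank of HoxB (95858721 to 95859040, 5.69 and 6.03) and one near Gpr84 in the anterior flank of HoxC (103305221 to 103305540, 5.68 and 5.05). The Skap2 exon peak of the HoxA flank had 3.96 and 3.06 (51857941 to 51858120). That of the posterior flank of HoxA, 105119 bp from Evx1 (52418561 to 52418780), had 2.13 and 1.74, and that of the posterior flank of HoxC, with a CTCF core, had 4.39 and 3.56. Of the 16 flank peaks named by rank, 9 lay outside any gene record and 0 had a Hox gene as nearest start, while 7 of the 8 cluster peaks had one.

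The second peak of each flank by rank was mostly weaker. In HoxB they lay beside the first peak of the posterior flank (95859141 to 95859380, 4.82 and 5.82) and in a Nfe2l1 intron of the anterior flank (96825141 to 96825360, 4.22 and 3.13). In HoxC they lay 2666 bp from Amhr2 in the posterior flank (102442601 to 102442800, 3.19 and 2.58) and near Gpr84 in the anterior flank (103307221 to 103307420, 4.26 and 5.71), where a CTCF core lies. The HoxA and HoxD flanks had the lower values. In HoxA they were 1.82 and 1.67 in the posterior flank (52504781 to 52505000) and 1.19 and 1.24 in the anterior flank (52064281 to 52064620). In HoxD they were 1.10 and 0.671 in the posterior flank (74363341 to 74363560) and 1.41 and 1.48 in the anterior flank (75224461 to 75224680).

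The protein-coding genes of the flanks numbered 47, and 37 and 36 of them had a promoter peak (78.7% and 76.6%), against 65.7% and 63.6% of all protein-coding genes. Of 23 listed neighbour genes that lie there, members of duplicated families among them, 18 and 19 had one, read against the same 65.7% and 63.6%. Members of a family could differ. Skap2, an adaptor of Src kinases next to HoxA, had 9.82 and 11.2, whereas its paralog Skap1 next to HoxB had none, although its record holds 5 distal peaks called in both replicates, as many as that of Skap2. Calcoco1 next to HoxC, which binds autophagy factors, had 5.30 and 5.92, and Calcoco2 next to HoxB had none. The ATP synthase subunit genes Atp5g1 and Atp5g2 had 11.7 and 12.3 and 6.15 and 6.50. Evx1 and Evx2, homeobox genes that stand next to Hoxa13 and Hoxd13, had none except for a weak peak of 0.458 at Evx1 in replicate 2.

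Other neighbours were strongly marked. Snx11, a sorting nexin gene, had 11.7 and 13.2, Nfe2l1, which activates proteasome genes, 8.90 and 8.95, and Hibadh, an enzyme of valine breakdown, 8.25 and 9.16. Lnpk and Mtx2, which border HoxD, had 3.88 and 4.43 and 1.45 and 1.58. The zinc finger gene Zfp652 held 8 distal peaks called in both replicates, the most of any flank gene record. Markers of the tissue stood in both replicates at the promoters of 7 of 7 skeletal muscle, 4 of 4 fibroblast, 3 of 3 endothelial and 1 of 3 macrophage genes, and at 0 of 3 genes of liver and brain; the part of the other cell types in the Hox values was not tested.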

How the data were processed

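DNase-seq of 2 gastrocnemius samples was analysed. Per the labels the files are on mm10, and the deposited files give, per sample, 2 peak lists and 1 list of footprints; the list with more peaks was used, and the shorter one, which lies almost wholly within it, as an alternative. Column 7 of the deposited peak lists is a signal in the authors' unit, whose scale is not stated, so depth is unknown. The p-value column of the deposited footprint lists is 0.01 throughout, a threshold and no measurement. The caller, aligner and their versions are not given in the sources used here; both alleles were read against 1 reference.

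Genes and start sites came from GENCODE M21, 1 record per symbol, on 21 chromosomes. A feature belonged to a region if its middle lay there; peaks were shared if they overlapped by 1 bp or more. The members and lists were chosen with earlier results of these data known. Per cluster the text names the spaces with the most shared regions and with none, and per cluster and flank the 2 shared distal peaks of highest mean percentile. Counting functions were tested on simulated intervals and sequences. Exact (Clopper-Pearson) 95% intervals are given. Python 3.11.15, numpy 2.4.6 and scipy 1.17.1 were used. Alternatives were the shorter list, the stronger 50% of peaks, equal numbers of peaks, flanks of 250 and 1000 kb, promoter windows of 500 and 2500 bp, an overlap of 50%, the 5′-most start, close peaks merged, footprints within peaks, whole-peak motif search and each replicate left out.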

Additional observations from a re-analysis of the deposited data

How the results depend on the processing

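No paired analysis was possible because there was a single group, with nothing to set its samples against. Values are means of the 2 replicates. Under the shorter deposited list, the stronger 50% of peaks, equal numbers of peaks and close peaks merged, the cluster density was 12.9, 13.1, 19.5 and 19.2 peaks per 100 kb in place of 21.5; under each it stayed above the flank density. The flank density was 4.88 with the shorter list and 4.31 with the stronger 50%, in place of 7.31. The share of distal cluster peaks found in both replicates was 42.0% with the shorter list, 65.0% with the stronger 50%, 47.2% with equal numbers and 54.6% with a promoter window of 2500 bp, in place of 44.2%. Cluster footprints within peaks numbered 44.2 per 100 kb in place of 51.8. The share of Hox promoters with a peak was 46.2% with the shorter list, 44.9% with the stronger 50%, 56.4% with equal numbers and with a window of 500 bp, 65.4% with 2500 bp and 55.1% with the 5′-most start alone, in place of 59.0%. The share of distal cluster peaks with a CTCF core was 0 under 6 alternatives and with either replicate alone, and 5.34% with 1 letter allowed to differ, the alternative added after the data were seen. In all, 20 values, with the 6 of the CTCF core among them, moved by less than 1 SD between replicates, or not at all. For the median percentile of distal cluster peaks that SD was wide, 15.9. Its value was 58.8 with a window of 2500 bp and 39.9 with equal numbers of peaks, in place of 46.7. With the shorter list it was 63.6 in replicate 1 and 23.0 in replicate 2.

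With either replicate left out, the cluster density ranged over 20.5 to 22.4 and the flank density over 6.08 to 8.55 peaks per 100 kb, cluster footprints over 48.0 to 55.7 and flank footprints over 17.2 to 23.8 per 100 kb, the shared share over 43.1% to 45.3% and the median percentile of distal cluster peaks over 35.5 to 58.0; the promoter share stayed at 59.0%. With 2 samples and no read depth, these values describe the deposited lists, and a place with no peak may hold cuts below the threshold of the list.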

Other observations

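The TALE proteins, homeodomain cofactors that bind DNA together with Hox proteins, were marked at the promoters of 9 of 9 genes in either replicate. Pknox1 had the strongest, with signals of 8.11 and 9.19. Pknox2 held 29 distal peaks of replicate 1 in its record that were also found in replicate 2. Meis3 had the weakest promoter peak of the list, with 0.558 and 0.553. Of 16 genes known to set or keep Hox expression, 13 had a promoter peak in both replicates. Among them were the Polycomb genes Ezh2 (7.76 and 7.63), Eed (4.68 and 4.62) and Suz12 (4.25 and 4.28), the trithorax gene Kmt2a (8.19 and 10.6) and Ctcf (2.75 and 3.26). The 3 without one were Cdx1, Cdx2 and Cdx4, homeobox genes that act on Hox clusters in the early embryo. Over all protein-coding genes the shares were 65.7% and 63.6%.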
